A study of Mus musculus with 35 samples.

Results

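The genes described here are the TRIM (tripartite motif) genes, taken as every row of the count table whose Ensembl identifier maps to a protein-coding mouse gene named Trim, a number and at most 1 letter. There were 68 of them among 53379 rows. Testing required 5 or more counts on average in the 30 MDSC libraries used, and 36 of the 68 reached it, within 12487 genes tested in all. The rule used names and the mean over all MDSC libraries, and no difference between groups. Just inside the minimum were Trim68 and Trim32, with means of 5.17 and 12.1 counts, and just outside were Trim45 and Trim2, with 4.80 and 4.30.

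Myeloid-derived suppressor cells (MDSC) came from mice carrying tumors of T110299 cells, a single mouse pancreatic cancer line, placed in the pancreas of C57BL/6 mice, the strain of the line. Treated mice were injected intravenously on days 18 and 20 with 50 µg of poly(I:C), a synthetic double-stranded RNA, complexed with polyethylenimine at an N/P ratio of 6 (poly(I:C)c). Controls received glucose, by the series' design text, and are called untreated here, as in the sample titles. CD11b+ cells were sorted into Ly6G+ PMN-MDSC with low Ly6C and Ly6G- M-MDSC with high Ly6C, whereas bulk tumor was lysed without sorting. The libraries were 4 untreated and 3 treated of spleen PMN-MDSC, 4 and 4 of tumor PMN-MDSC, 4 and 4 of spleen M-MDSC, 4 and 3 of tumor M-MDSC, and 4 of untreated bulk tumor. Every group therefore shares the same tumor line and host strain. The mice were matched for age and sex.

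Total counts were 793070 to 4357105 in the MDSC libraries and 3771590 to 8886115 in bulk tumor, and 1 further tumor M-MDSC library of a treated mouse, with 10 counts, was left out. The sample titles repeat replicate numbers across groups, and the numbers in the column names run in sets of 4 that follow those titles, so that each set appears to hold the libraries of 1 mouse. Libraries were not paired in the tests below, and a fit that blocks on these sets is given where it changes the call of a member described. Levels are given as CPM, counts scaled to a common library total with edgeR's trimmed mean (TMM) factors, and comparisons between genes as FPKM, the same value divided by exon length in kilobases.

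Sort antigens and marker lists were checked before the members. In spleen, Ly6g stood at 36.9 to 98.8 CPM in untreated PMN-MDSC and at 0.392 to 3.40 in untreated M-MDSC. In tumor PMN-MDSC of untreated mice it was only 0 to 8.96 CPM. There the 10 PMN-MDSC markers summed to 1408 to 4477 CPM, below the 8 M-MDSC markers at 4785 to 8838, and 6 macrophage markers reached 3119 to 3881. The same PMN-MDSC markers were nevertheless above those of untreated tumor M-MDSC, at 233 to 576 CPM, and Ly6c2, at 1.89 to 10.9 CPM, was below its 40.9 to 142 there, both without overlap. The markers thus bore out the PMN-MDSC label only in part in tumors of untreated mice, and "tumor PMN-MDSC" below names the sorted gate. In tumor PMN-MDSC of treated mice Ly6g was 4.94 to 83.5 CPM, the PMN-MDSC markers summed to 3679 to 11336 CPM, the M-MDSC markers to 1898 to 3469 and the macrophage markers to 2957 to 5297. In 1 treated tumor M-MDSC library Ly6c2 was 2.67 CPM and C1qa, a macrophage complement gene, 1964 CPM, against 406 to 586 and 358 to 882 in the others. In bulk RNA, fewer cells of a type and less RNA per cell cannot be told apart.

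Most TRIM proteins carry a RING domain, which transfers ubiquitin, followed by B-box zinc fingers and a coiled coil, and a few lack the RING. Their C-terminal domain sets what they bind: a PRYSPRY domain in most antiviral members, NHL repeats or a PHD finger with a bromodomain in others. Many are induced by type I interferon and act on cytosolic RNA and DNA sensing, the route by which poly(I:C)c is detected through MDA5, or bind viral capsids directly. Others have no link with interferon and regulate transcription, centrosomes, microtubules or muscle protein turnover.

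Poly(I:C)c treatment was followed by higher levels of some TRIM genes in each of the 4 sorted populations, though of few in tumor M-MDSC, and in spleen PMN-MDSC by lower levels of a separate set. Of the 36 members tested, 9 rose and 12 fell in spleen PMN-MDSC, 6 rose and 0 fell in tumor PMN-MDSC, 9 rose and 2 fell in spleen M-MDSC, and 3 rose and 1 fell in tumor M-MDSC. These calls used edgeR's quasi-likelihood test with an adjusted p under 0.05 over all genes tested. Over all genes the shares that rose were 6.29%, 1.75%, 6.9% and 4.26% in the same order, and the shares that fell 14.4%, 0.641%, 4.02% and 2.36%. Among members, 25% rose in spleen PMN-MDSC and in spleen M-MDSC, 16.7% in tumor PMN-MDSC and 8.33% in tumor M-MDSC. The members that fell made up 33.3% in spleen PMN-MDSC, 5.56% in spleen M-MDSC and 2.78% in tumor M-MDSC. Of the members that rose in tumor M-MDSC, only Trim34a was called when its 7 libraries were fitted alone. In that fit Trim14 and Trim12a had log2 fold changes of 1.09 and 0.85 (adjusted p = 0.0675 and 0.0834). In tumor M-MDSC 0 members passed an adjusted p under 0.001 with a change of at least 2-fold.

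In all, 23 members changed in at least 1 population, 10 upward only and 13 downward only, and 0 in opposite directions. The median log2 fold change of the members was 0.11, 0.04, 0.07 and 0.22 for spleen PMN-MDSC, tumor PMN-MDSC, spleen M-MDSC and tumor M-MDSC, beside -0.18, 0.01, 0.01 and 0.04 for all genes. When spleen PMN-MDSC was fitted on its own 7 libraries, 8 members rose and 2 fell, with 9 of these 10 among the 21 above, beside 8.89% of all genes called in that fit. Leaving out treated replicate 2 of spleen PMN-MDSC left 13 members called there. Leaving out treated replicate 4 of tumor PMN-MDSC left 3, and leaving out untreated replicate 4 or treated replicate 3 of spleen M-MDSC left 6. By the study's description, the libraries of a group came from different mice.

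Markers of cell types moved with these comparisons too. In tumor PMN-MDSC the ranges of the PMN-MDSC markers and Ly6g reached higher in treated than in untreated mice and overlapped, and the M-MDSC markers were lower in every treated library, as given above. Of 11 marker lists, the sums of 3 did not overlap there: besides the M-MDSC markers, the 7 dendritic cell markers, at 16.4 to 27.2 CPM untreated and 0.944 to 13.5 treated, and the 6 B cell markers, at 47.4 to 95.3 and 16.98 to 43.1. In spleen M-MDSC the 8 M-MDSC markers summed to 5245 to 7849.6 CPM in untreated and 2911 to 4418 in treated mice, the 8 erythroid markers to 23.9 to 48.3 and 0.909 to 3.40, the 4 endothelial markers to 19.6 to 28.6 and 111 to 273, and the 6 fibroblast markers to 2.35 to 4.36 and 4.54 to 8.18. These were the 4 lists without overlap. The B cell markers there summed to 90.4 to 186 CPM untreated and 117 to 11761 treated, with Ighm, the heavy chain of IgM, at 11647 CPM in 1 treated library, without which 10 members were called in spleen M-MDSC. In tumor M-MDSC the M-MDSC markers summed to 9327 to 12492 CPM untreated and 3349 to 5278 treated, with no overlap, and the macrophage markers to 1569 to 2169.9 and 1751 to 7854, with overlap. The other 3 lists without overlap there were the endothelial markers, at 20.4 to 40.97 CPM untreated and 70.2 to 141 treated, the dendritic cell markers, at 17.04 to 32.9 and 1.59 to 8.43, and the 5 epithelial markers, at 98.8 to 317 and 68.03 to 95.004. The part of these markers in the changes of TRIM genes was not tested.

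**Figure D1:**
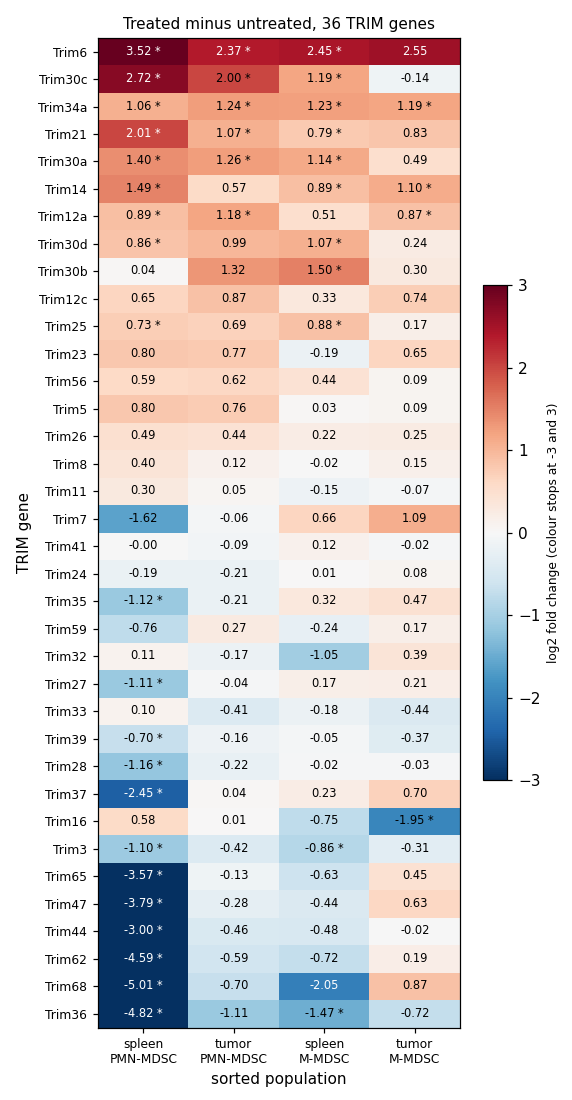
Log2 fold change (treated minus untreated) of the 36 TRIM genes tested, in rows, for the 4 sorted populations, in columns, where an asterisk marks an adjusted p under 0.05 and rows are ordered by their mean. Trim34a is marked in all 4 columns, 12 members are marked lower in spleen PMN-MDSC and 0 in tumor PMN-MDSC. Values of Trim36, Trim47, Trim62 and Trim68 in spleen PMN-MDSC rest on treated libraries with 0 or 1 count in all and have no firm size.

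The largest block of members that rose lies on chromosome 7 of GRCm38, between Trim6 (chr7:104218793-104235152) and Trim30d (chr7:104470014-104507849), where mice carry copies related to the human capsid-binding restriction factor TRIM5. Of 11 genes listed there, 9 were tested: 6 rose in spleen PMN-MDSC, 5 in tumor PMN-MDSC, 6 in spleen M-MDSC and 2 in tumor M-MDSC, and 0 fell. Their median log2 fold changes were 0.89, 1.24, 1.14 and 0.49, beside -0.18, 0.01, 0.01 and 0.04 for all genes. Of all genes, 6.29%, 1.75%, 6.9% and 4.26% rose in the same order.

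Trim34a (chr7:104244457-104262234), a relative of TRIM5 in this cluster, was the only member that passed this test upward in all 4 populations. In spleen PMN-MDSC the untreated libraries held 83.8, 88.1, 95.1 and 131 CPM and the treated ones 157, 212 and 251. In tumor PMN-MDSC they held 15.03, 21.8, 26.9 and 33.03 CPM untreated and 47.1, 52.8, 57.6 and 72.7 treated. The treated libraries lay above the untreated ones without overlap in both. In spleen M-MDSC the levels were 35.9, 41.3, 43.1 and 47.1 CPM untreated and 85.6, 86.2, 102 and 116 treated, and in tumor M-MDSC 21.7, 21.8, 22.1 and 23.6 untreated and 34.5, 59.2 and 59.9 treated. Again the groups did not overlap, and the lowest treated value in tumor was that of the library with little Ly6c2. Without that library the tumor M-MDSC difference was 1.43 on the log2 scale (adjusted p = 6.18e-04). The log2 fold change was 1.06 ± 0.22 (SE) in spleen PMN-MDSC, with an edgeR adjusted p of 9.02e-04, and 1.24 ± 0.22 in tumor PMN-MDSC, with 9.22e-04. It was 1.23 ± 0.21 in spleen M-MDSC (1.95e-04) and 1.19 ± 0.24 in tumor M-MDSC (0.00223). Its near copy Trim34b averaged 1.53 counts and was not tested. Of the 50-base stretches in Trim34a transcripts, 39.8% also occur in Trim34b, and how fragments that match both were counted is not given in the sources used here.

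Trim30a (chr7:104409025-104465193), which limits NF-kB signalling downstream of Toll-like receptors, had the highest mean level per length of all TRIM genes in treated MDSC of every population. In FPKM the SD ranges of the first members overlapped in treated spleen PMN-MDSC, as they did in treated tumor PMN-MDSC (Trim30a 87.7 ± 24.7, n = 4; Trim25 68.8 ± 15.3) and treated tumor M-MDSC (Trim30a 74.8 ± 19.7, n = 3; Trim25 64.7 ± 19.7). Untreated spleen PMN-MDSC held 394, 470.2, 491 and 516 CPM and treated ones 633, 1329 and 1727. Tumor PMN-MDSC held 132, 132, 155 and 184 CPM untreated and 286, 296, 353 and 506 treated. No treated library overlapped the untreated ones, but the 3 treated spleen libraries were far apart. The lowest of these, at 633 CPM, also held 31407 CPM of the granule gene Ltf, against 2968 and 6840.1 in the others. In spleen M-MDSC Trim30a was 172, 181, 233 and 234 CPM untreated and 385, 435, 459 and 529.6 treated, without overlap. In tumor M-MDSC it was 179, 212, 241 and 242 CPM untreated and 216, 341 and 367 treated, with overlap through the library low in Ly6c2, without which the log2 fold change was 0.71 (adjusted p = 0.165). Trim30a rose by 1.395 ± 0.25 on the log2 scale in spleen PMN-MDSC (edgeR adjusted p = 2.24e-04), 1.26 ± 0.24 in tumor PMN-MDSC (0.00230) and 1.14 ± 0.24 in spleen M-MDSC (0.00161). In tumor M-MDSC the log2 fold change was 0.49 ± 0.25 (adjusted p = 0.274).

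Trim30c (chr7:104382065-104400837), a neighboring copy, spanned a wider range. Untreated spleen PMN-MDSC held 9.76, 10.5, 13.04 and 21.6 CPM and treated ones 32.7, 103 and 141, and tumor PMN-MDSC 5.78, 12.5, 15.2 and 17.99 untreated and 37.7, 37.9, 52.96 and 79.3 treated. All treated values exceeded all untreated ones in these PMN-MDSC groups. Spleen M-MDSC held 24.7, 31.04, 44.2 and 64.1 CPM untreated and 60.1, 77.8, 101 and 132 treated, and tumor M-MDSC 27.8, 46.8, 53.7 and 61.99 and 22.8, 48.1 and 58.3. Here the groups overlapped in both compartments. The log2 fold change was 2.72 ± 0.45 in spleen PMN-MDSC (edgeR adjusted p = 8.73e-05), 1.997 ± 0.43 in tumor PMN-MDSC (0.00841), 1.19 ± 0.39 in spleen M-MDSC (0.0477) and -0.14 ± 0.43 in tumor M-MDSC (0.907). The spleen M-MDSC call held in 2 of 8 fits that each left out 1 library.

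Trim30d and Trim30b completed the Trim30 copies tested. Trim30d rose in spleen PMN-MDSC (0.86, adjusted p = 0.0471) and spleen M-MDSC (1.07, 0.0160). The spleen PMN-MDSC call held in 2 of 7 leave-one-out fits. Trim30b, the member highest per length in untreated spleen PMN-MDSC together with Trim30a, had 714 to 1087 CPM there and 458 to 1326 after treatment, a log2 fold change of 0.04 ± 0.46. It rose in spleen M-MDSC, with 42.5 to 55.6 CPM untreated and 116 to 181 treated (1.501, 0.0265), a call that held in 3 of 8 leave-one-out fits. In tumor PMN-MDSC the treated libraries of both genes lay above the untreated ones, with log2 fold changes of 0.99 ± 0.29 for Trim30d (edgeR adjusted p = 0.0743) and 1.32 ± 0.44 for Trim30b (0.125). There Trim30d was called by DESeq2 (0.97, adjusted p = 0.0386), and both were called with no filter on low counts (0.999, adjusted p = 0.00257 for Trim30d and 1.33, adjusted p = 7.54e-06 for Trim30b). In tumor M-MDSC the library low in Ly6c2 held 8.02 CPM of Trim30b and the other treated libraries 62.3 and 65.998.

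Trim6 (chr7:104218793-104235152), whose product builds unanchored ubiquitin chains that activate the kinase IKKε, had the largest log2 fold change of the members that rose. Spleen PMN-MDSC held 2.27, 2.37, 4.49 and 6.27 CPM untreated and 20.7, 45.3 and 59.5 treated, and tumor PMN-MDSC 0.390, 0.541, 1.73 and 5.68 untreated and 6.65, 7.27, 8.08 and 22.6 treated. Spleen M-MDSC held 0, 1.02, 1.17 and 1.51 CPM untreated and 4.76, 5.29, 5.76 and 7.32 treated, and tumor M-MDSC 0, 0, 0.650 and 0.786 and 1.69, 3.50 and 3.97. Each population's groups were apart, at levels that were low outside treated spleen PMN-MDSC. The log2 fold change was 3.52 ± 0.56 in spleen PMN-MDSC (edgeR adjusted p = 6.01e-05), 2.37 ± 0.60 in tumor PMN-MDSC (0.0263), 2.45 ± 0.63 in spleen M-MDSC (0.00919) and 2.55 ± 0.88 in tumor M-MDSC (0.0814). The tumor PMN-MDSC call held in 4 of 8 leave-one-out fits, with 1 treated library at 22.6 CPM, and was lost when only the 8 libraries compared were fitted (adjusted p = 0.119). With no filter on low counts, Trim6 was also called higher in tumor M-MDSC (2.54, adjusted p = 0.0167).

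Trim12a, Trim12c and Trim5, the mouse counterparts of human TRIM5, share sequence with each other: 10.4%, 33.0% and 36.3% of their 50-base stretches occur in another gene. Trim12a rose in spleen PMN-MDSC (0.89, 0.00719), tumor PMN-MDSC (1.18, 0.00276) and tumor M-MDSC (0.87, 0.0377). The last of these held in 1 of 7 leave-one-out fits. In spleen M-MDSC Trim12a was called when only the libraries compared were fitted (0.51, adjusted p = 0.0203). Trim12c, at 0.87 in tumor PMN-MDSC (adjusted p = 0.0502), and Trim5, at 0.80 in spleen PMN-MDSC (0.0855), did not pass the test.

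Promoter sequence was compared between the members that rose, many of them in the cluster, and the other members. Windows of 300 bases, 250 before and 50 after each gene's start, came from RefSeq on GRCm38.p6 and held 53 of the 68 members. They were searched on both strands for the core of the interferon-stimulated response element (ISRE), a pair of GAAA repeats with any 2 bases between them, which interferon-activated factors bind. At least 1 match was found in 3.99% of 27025 genes and in 9 of the 53 members: Trim2, Trim5, Trim12a, Trim12c, Trim21, Trim26, Trim30a, Trim30d and Trim34a. Of the members with a window, 5 of the 9 that rose in some population held a match, as did 0 of the 8 that fell and 3 of the 10 called in none. The windows of Trim11, Trim14, Trim16, Trim3, Trim33, Trim35, Trim36, Trim65 and Trim8 were not among those searched. A match is a description of the letters and not a mapped binding site.

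The 30 bases around the matches in the 5 members that rose are shown to let them be compared, on the strand of each gene, with the match in capitals. In all but Trim21 the match lies on the opposite strand and reads as its reverse complement.
Trim21: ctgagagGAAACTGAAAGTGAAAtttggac
Trim34a: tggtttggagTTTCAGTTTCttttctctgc
Trim30a: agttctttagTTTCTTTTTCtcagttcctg
Trim30d: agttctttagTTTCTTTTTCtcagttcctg
Trim12a: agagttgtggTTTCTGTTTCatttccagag

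The Trim21 window (chr7:102565447-102565476, minus strand) holds 2 overlapping matches, the first starting 13 bases after the RefSeq start. In Trim34a (chr7:104244457-104244486, plus strand) and Trim12a (chr7:104315466-104315495, minus strand) the match starts 10 bases after it. The windows of Trim30a (chr7:104465210-104465239) and Trim30d (chr7:104507871-104507900), both on the minus strand, have identical letters and lie before the start, at -36 and -41. A further RefSeq start of Trim30a has the same match and the same letters after it, and differs in some of the letters before it. Trim5 holds the same 30 letters as Trim12a, at chr7:104288136-104288165, and was not called in any treatment comparison by the main edgeR fit.

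Outside the cluster, Trim21 (chr7:102557921-102565486), a cytosolic antibody receptor that sends antibody-coated virus to the proteasome, had the second smallest adjusted p of all members. Spleen PMN-MDSC held 20.9, 31.2, 31.2 and 38.3 CPM untreated and 95.5, 123 and 146 treated, without overlap. Tumor PMN-MDSC held 11.6, 22.3, 22.7 and 23.4 CPM untreated and 31.6, 38.2, 44.1 and 56.1 treated, also without overlap. In spleen M-MDSC the values were 32.9, 34.1, 37.96 and 50.9 untreated and 44.6, 52.997, 64.8 and 105 treated, with overlap, and in tumor M-MDSC 13.7, 16.3, 22.998 and 24.7 and 31.1, 31.3 and 39.3, without. Its log2 fold change was 2.01 ± 0.28 in spleen PMN-MDSC (edgeR adjusted p = 7.79e-06), 1.07 ± 0.27 in tumor PMN-MDSC (0.0250), 0.79 ± 0.25 in spleen M-MDSC (0.0416) and 0.83 ± 0.29 in tumor M-MDSC (0.0878). The spleen M-MDSC call held in 3 of 8 leave-one-out fits.

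Trim14 (chr4:46493781-46536141), a member without a RING domain that acts with MAVS at mitochondria, rose in 3 populations. Untreated and treated spleen PMN-MDSC held 26.9, 30.4, 40.9 and 42.5 CPM and 81.3, 81.8 and 131 CPM, and spleen M-MDSC 45.4, 48.1, 52.5 and 56.7 and 78.5, 81.7, 90.3 and 125. In tumor M-MDSC the levels were 15.3, 26.999, 37.3 and 37.7 CPM untreated and 61.9, 62.3 and 69.04 treated. In these 3 the treated libraries lay above all untreated ones. In tumor PMN-MDSC the groups overlapped, with 26.9, 29.4, 34.1 and 42.2 CPM untreated and 34.6, 49.1, 52.8 and 59.1 treated. The log2 fold changes were 1.49 ± 0.24 in spleen PMN-MDSC (edgeR adjusted p = 7.31e-05), 0.89 ± 0.22 in spleen M-MDSC (0.00729), 1.10 ± 0.25 in tumor M-MDSC (0.00618) and 0.57 ± 0.23 in tumor PMN-MDSC (0.216).

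Trim25, the ubiquitin ligase of the RNA sensor RIG-I, rose in spleen M-MDSC, with 129 to 164 CPM untreated and 225 to 332 treated (0.88, 0.00980), and in spleen PMN-MDSC, with 238 to 467 untreated and 349 to 722 treated (0.73, 0.0283). The latter call held in 2 of 7 leave-one-out fits. Across the 14 tested of 16 TRIM genes listed as interferon-linked, 9, 6, 9 and 3 rose in spleen PMN-MDSC, tumor PMN-MDSC, spleen M-MDSC and tumor M-MDSC, and 0 fell. Of all genes, 6.29%, 1.75%, 6.9% and 4.26% rose in the same order. All TRIM members that rose by edgeR belong to the interferon-linked list, which was compiled with earlier results of these data known. Trim26 and Trim56 of the list were called in none of the 4 by the main edgeR fit, with log2 fold changes of 0.22 to 0.49 and 0.09 to 0.62. DESeq2 called 13 members higher in spleen PMN-MDSC, against 9 by edgeR, beside 8.3% of all genes.

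**Figure D2:**
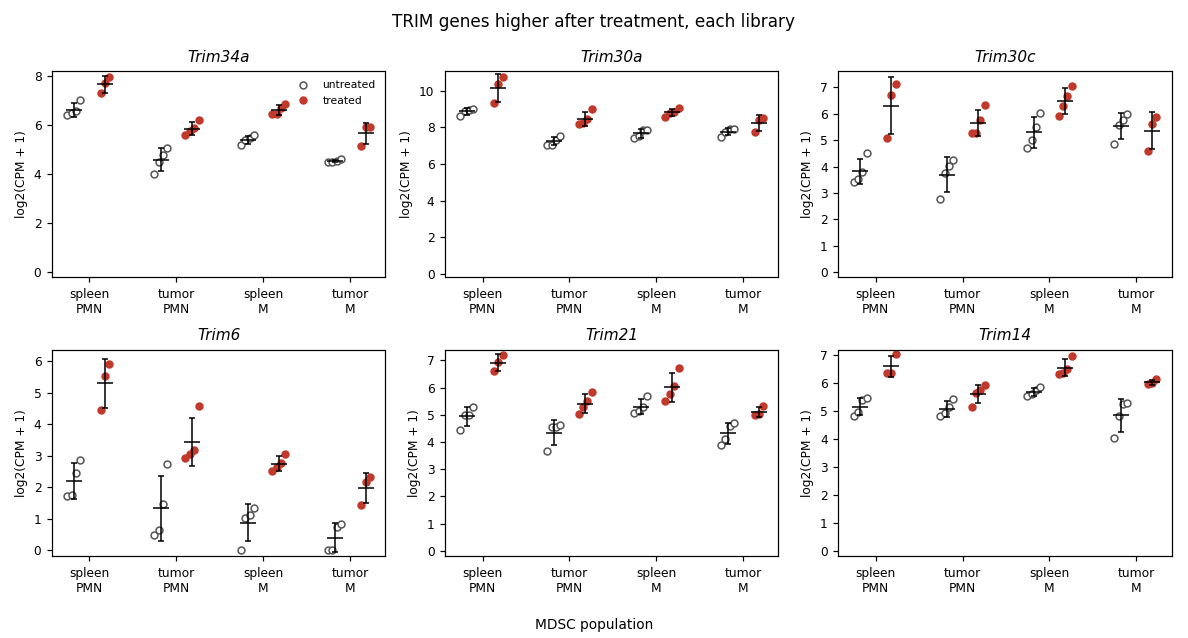
Level of 6 TRIM genes as log2(CPM + 1) in each of 30 MDSC libraries (open gray, untreated; filled red, treated), by population on the x axis, with the mean and SD of the plotted values in black. Treated libraries of Trim34a lie above untreated ones in all 4 populations, whereas those of Trim30c overlap in M-MDSC.

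Most of the calls of lower members, 12 against 2 in spleen M-MDSC and 1 in tumor M-MDSC, came from the spleen PMN-MDSC comparison. Trim44 (chr2:102300119-102407828), a B-box protein without a RING domain that stabilizes MAVS, had the smallest adjusted p of all members. Untreated spleen PMN-MDSC held 13.04, 14.96, 17.4 and 34.6 CPM and treated ones 1.16, 2.52 and 4.30, with 2 to 5 counts per treated library. Tumor PMN-MDSC held 42.5, 56.1, 56.9 and 58.2 CPM untreated and 23.1, 39.1, 39.9 and 52.2 treated. The groups were apart in spleen and overlapped in tumor. In spleen M-MDSC the values were 41.01, 46.98, 47.1 and 53.6 untreated and 30.2, 32.6, 33.1 and 39.1 treated, which did not overlap, and in tumor M-MDSC 53.7, 54.6, 55.4 and 63.9 and 42.98, 49.98 and 73.8, which did. Trim44 fell in spleen PMN-MDSC (log2 fold change -2.998 ± 0.41, SE; adjusted p by edgeR 6.55e-06). The values were -0.46 ± 0.25 in tumor PMN-MDSC (0.404), -0.48 ± 0.25 in spleen M-MDSC (0.250) and -0.02 ± 0.27 in tumor M-MDSC (0.980). Fitted on the 8 spleen M-MDSC libraries alone, Trim44 was called lower there as well (-0.49, adjusted p = 0.0379).

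Trim28 (chr7:12999114-13031035), the corepressor KAP1 that KRAB zinc finger proteins bring to endogenous retroviruses, was 41.9, 50.5, 56.8 and 57.1 CPM in untreated and 13.6, 25.8 and 30.2 in treated spleen PMN-MDSC, without overlap. Tumor PMN-MDSC held 68.98, 70.4, 71.98 and 91.9 CPM untreated and 48.1, 57.9, 74.6 and 77.8 treated. M-MDSC held 67.97, 69.7, 71.6 and 77.2 CPM untreated and 64.5, 67.6, 74.3 and 75.2 treated in spleen, and 71.3, 74.8, 81.8 and 88.1 and 68.7, 81.2 and 82.1 in tumor. These last 3 pairs of groups overlapped. The log2 fold change in spleen PMN-MDSC was -1.16 ± 0.21 (edgeR adjusted p = 2.61e-04), and in the others it lay between -0.22 and -0.02, with adjusted p of 0.624 or more.

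Trim37 (chr11:87127077-87220683), a regulator of centriole assembly, held 8.69, 9.06, 13.5 and 20.4 CPM in untreated and 1.01, 1.16 and 6.02 in treated spleen PMN-MDSC. Tumor PMN-MDSC held 11.4, 14.4, 17.1 and 20.4 and 7.55, 16.8, 18.7 and 22.003, spleen M-MDSC 11.4, 20.1, 20.9 and 25.3 and 20.3, 22.5, 22.8 and 26.5, and tumor M-MDSC 8.94, 9.11, 9.33 and 18.3 and 15.5, 17.6 and 25.1, untreated first. Only in the first did the groups lie apart, with few counts in the treated libraries, which limits the size of that change. Its log2 fold change there was -2.45 ± 0.52 (edgeR adjusted p = 0.00116), against 0.04 ± 0.35, 0.23 ± 0.33 and 0.70 ± 0.38 in the others, with adjusted p of 0.981, 0.753 and 0.309.

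Trim65 (chr11:116121846-116131128), the ubiquitin ligase of MDA5, held 2.37, 5.98, 9.76 and 21.9 CPM in untreated and 0, 0 and 2.32 in treated spleen PMN-MDSC. Tumor PMN-MDSC held 14.03, 17.05, 22.2 and 25.4 and 9.91, 14.8, 22.1 and 23.6, spleen M-MDSC 21.5, 24.4, 32.9 and 37.5 and 15.1, 16.4, 17.3 and 25.8, and tumor M-MDSC 12.3, 18.7, 22.1 and 22.998 and 20.2, 22.7 and 32.5, untreated first. Treated spleen PMN-MDSC lay just below the untreated group, with 4 counts in 1 library and 0 in the other 2, and the other groups overlapped. The log2 fold change was -3.57 ± 0.78 in spleen PMN-MDSC (edgeR adjusted p = 0.00149), -0.13 ± 0.42 in tumor PMN-MDSC (0.935), -0.63 ± 0.40 in spleen M-MDSC (0.393) and 0.45 ± 0.45 in tumor M-MDSC (0.628). Trim65 overlaps Trim47 on the same strand, so fragments in the overlap cannot be told apart. Other members called under treatment that overlap a gene on their strand are Trim44 (Gm13868), Trim30d (Gm16464), Trim3 (Gm45632), Trim68 (Gm45527) and Trim16, given below.

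**Figure D3:**
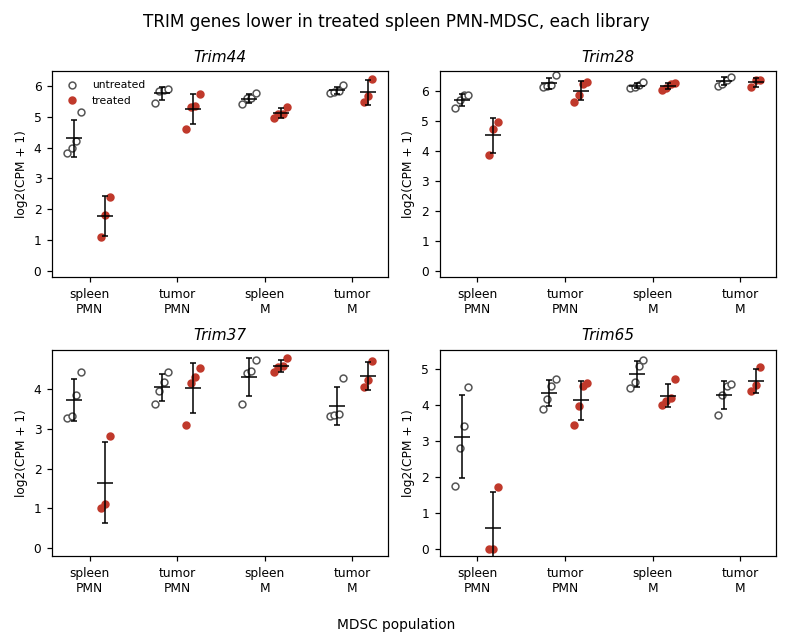
Level of 4 TRIM genes as log2(CPM + 1) in each of 30 MDSC libraries (open gray, untreated; filled red, treated), by population on the x axis, with the mean and SD of the plotted values in black. The 3 treated spleen PMN-MDSC libraries lie below the 4 untreated ones for Trim44, Trim28, Trim37 and Trim65.

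The other 8 members that fell in spleen PMN-MDSC had larger adjusted p than Trim44, Trim28, Trim37 and Trim65. Trim27, Trim35, Trim3 and Trim39 fell, with log2 fold changes of -1.11, -1.12, -1.10 and -0.70 and adjusted p of 0.00309, 0.00580, 0.0165 and 0.0152. Trim3, which carries NHL repeats, also fell in spleen M-MDSC (-0.86, 0.0276), as did the microtubule-associated Trim36 (-1.47, 0.0312). These 2 spleen M-MDSC calls held in 3 of 8 and 2 of 8 leave-one-out fits.

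Trim36, Trim47, Trim62 and Trim68 passed the test in spleen PMN-MDSC at counts near 0, with adjusted p of 0.00189, 0.0150, 0.0437 and 0.0307. For Trim36, 1 count was found in the treated and 79 in the untreated libraries, a pooled ratio of untreated to treated of 37.8 (95% exact interval 6.59 to 1512). For Trim47 it was 1 against 37 counts, a ratio of 17.7 (2.99 to 718). Trim62 and Trim68 had 0 counts in the 3 treated libraries and 11 and 16 in the untreated ones. For Trim68, 1 untreated library was also at 0, so the groups overlapped. Both calls held in 2 of 7 leave-one-out fits. The Trim62 call was lost with DESeq2 (adjusted p = 0.0666) and with no filter on low counts (0.0593). Against a floor of 3 counts over the treated group, with the untreated counts taken as exact, Trim62 and Trim68 were at least 1.76-fold and at least 2.55-fold lower. DESeq2 also called Trim68 lower in spleen M-MDSC (-2.16, adjusted p = 0.0129). Intervals and floors pool the libraries of a group and cover counting error only, without the spread between mice. The libraries were amplified by PCR and carry no molecular identifiers, so copies of 1 fragment may also be counted more than once.

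When spleen PMN-MDSC was fitted on its own libraries, Trim44 and Trim36 were the members still called lower (adjusted p = 0.0130 and 0.0229). Trim28, Trim37 and Trim65 then had log2 fold changes of -1.05, -2.31 and -3.45, with adjusted p of 0.0535, 0.0553 and 0.0781. Markers of other cells moved in the same comparison. The 6 macrophage markers summed to 381 to 1139 CPM in untreated and 52.99 to 129 in treated spleen PMN-MDSC, the 8 erythroid markers to 69.5 to 191 and 0.505 to 10.3, with Hba-a1 at 0 in every treated library, the 7 dendritic cell markers to 28.5 to 80.9 and 0.861 to 5.23, the 4 endothelial markers to 29.2 to 72.6 and 12.9 to 23.8, and the 6 acinar markers to 1.58 to 5.58 and 0 to 1.51. The 10 PMN-MDSC markers summed to 21819 to 39798 CPM untreated and 47094 to 80683 treated. None of these 6 sums overlapped between the groups. Their part in the lower TRIM levels was not tested.

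The only member that fell in tumor M-MDSC was Trim16, a RING-less member linked to autophagy of damaged lysosomes. Its untreated libraries held 17.6, 17.9, 26.01 and 32.9 CPM and its treated ones 1.85, 6.43 and 11.1, without overlap. The log2 fold change was -1.95 ± 0.42 (edgeR adjusted p = 0.00466), and on the 7 libraries alone it was also -1.95, with an adjusted p of 0.0810. On the 8 spleen M-MDSC libraries alone, Trim16 was called lower there (-0.75, adjusted p = 0.0165). Trim16 overlaps Fbxw10 on the same strand, and fragments in the overlap cannot be told apart. Leaving out any 1 library, also the one low in Ly6c2, gave 3 or 4 members called in tumor M-MDSC, and on the 7 libraries alone 1 member, Trim34a, was called, beside 2.07% of all genes.

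Counted without a test, 10 members of spleen PMN-MDSC had every treated library above every untreated one, beside 7.65% of all genes, and 12 had every treated library below, beside 16.8%. Of tumor PMN-MDSC members 12 were higher without overlap (5.37% of all genes) and 0 lower (4.73%). In spleen M-MDSC 9 were higher (11.6%) and 6 lower (10.4%), and in tumor M-MDSC 8 higher (9.7%) and 2 lower (7.5%).

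Whether the treatment effect differed between populations was tested directly as a difference of log2 fold changes. Between tumor and spleen PMN-MDSC, 4 members differed, all with the higher fold change in tumor, beside 4.58% of all genes in that direction. They were Trim44 (difference 2.54 ± 0.48, adjusted p = 0.00258), Trim37 (2.49 ± 0.63, 0.0192), Trim65 (3.44 ± 0.91, 0.0241) and Trim28 (0.94 ± 0.28, 0.0438). With the sets of column numbers as a block, 3 of the 4 were called and Trim28 was not (adjusted p = 0.0647). On the 15 libraries of PMN-MDSC alone, 1 member differed, beside 1.84% of all genes. The median difference over all genes was 0.22.

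Between PMN-MDSC and M-MDSC of spleen, 7 members differed. Leaving out treated PMN-MDSC replicate 3 left 4, and an adjusted p under 0.001 with at least 2-fold left 0. With no filter on low counts 11 differed, beside 4.33% of all genes. Trim21 had the larger increase in PMN-MDSC, with a difference of 1.22 ± 0.37 (adjusted p = 0.0347), beside 1.68% of all genes. Trim44, Trim37, Trim65, Trim35, Trim27 and Trim28 had the lower fold change in PMN-MDSC, beside 8.41% of all genes. The lowest 4 of these differences were -2.94 ± 0.91 for Trim65, -2.68 ± 0.62 for Trim37, -2.51 ± 0.48 for Trim44 and -1.45 ± 0.37 for Trim35, with adjusted p of 0.0370, 0.00618, 0.00137 and 0.0124. The treated and untreated spleen PMN-MDSC libraries enter both of these contrasts.

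Between tumor and spleen M-MDSC 0 members passed edgeR's test, beside 0.873% of all genes, with 5 at an unadjusted p under 0.05 and 0 by DESeq2. Between PMN-MDSC and M-MDSC of tumor 0 members and 0% of all genes passed, with 3 members at an unadjusted p under 0.05 (Trim30a, Trim16 and Trim30c, named after their values were seen) and 0 by DESeq2. For Trim30c that difference was 2.13 ± 0.61 on the log2 scale (adjusted p = 0.297). A p above the threshold does not show that the effects were alike.

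In untreated mice, 7 of the 9 chromosome 7 cluster genes tested were lower in tumor than in spleen PMN-MDSC, 0 were higher, and Trim6 and Trim30c were not called, with a median of -1.63 on the log2 scale beside 0.04 for all genes. Of 36 members, 6 were higher and 11 lower in tumor, beside 25.5% and 26.4% of all genes, so that the share of members lower was close to that background. The lowest 4 were Trim30b (-3.79 ± 0.48, adjusted p = 4.93e-07), Trim12c (-2.31 ± 0.25, 2.73e-08), Trim12a (-2.15 ± 0.23, 3.40e-08) and Trim34a (-2.03 ± 0.22, 3.55e-08). Trim30b was at 714, 733, 895 and 1087 CPM in spleen and 24.8, 56.1, 78.6 and 87.7 in tumor, with no overlap. The highest 4 were Trim62 (2.55 ± 0.59, 8.10e-04), Trim47 (2.23 ± 0.52, 8.37e-04), Trim32 (1.79 ± 0.48, 0.00287) and Trim36 (1.44 ± 0.48, 0.0129). These 4 genes were at 0.395 to 2.09, 1.12 to 7.09, 0.395 to 2.24 and 2.79 to 13.9 CPM in spleen. With the sets of column numbers as a block, Trim65 was also called higher in tumor (1.10, 0.0158) and Trim7 was no longer called (-1.22, 0.0526). The sums of 9 of the 11 marker lists did not overlap in this comparison, the weak neutrophil markers of the tumor gate, given above, among them, and their part was not tested.

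In untreated M-MDSC, 2 members were higher and 5 lower in tumor than in spleen, beside 11% and 7.47% of all genes. Trim47 (2.09 ± 0.58, adjusted p = 0.0112) and Trim25 (1.19 ± 0.23, 3.50e-04) were higher. Trim25 was at 129, 141, 147 and 164 CPM in spleen and 306, 330.3, 332 and 353 in tumor, without overlap. Lower were Trim7, which binds the glycogen primer glycogenin (-1.99 ± 0.58, 0.0157), Trim21 (-1.03 ± 0.28, 0.00829), Trim34a (-0.90 ± 0.22, 0.00483), Trim12a (-0.83 ± 0.24, 0.0143) and, at -0.75, Trim14. With the block, Trim12c was also called lower (-0.69, 0.0453). The sums of 7 marker lists did not overlap. Macrophage markers were at 225 to 301 CPM in spleen and 1569 to 2169.9 in tumor, PMN-MDSC markers at 2259 to 5086 and 233 to 576, M-MDSC markers at 5245 to 7849.6 and 9327 to 12492, and epithelial markers at 0.873 to 8.87 and 98.8 to 317. Their part in the TRIM differences was not tested.

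Between the cell types in untreated spleen, 13 members were higher and 8 lower in PMN-MDSC than in M-MDSC, beside 28% and 24% of all genes. Highest were Trim30b (4.09 ± 0.49, adjusted p = 1.82e-07), Trim12a (2.24 ± 0.23, 1.58e-08), Trim12c (1.86 ± 0.24, 4.08e-07) and Trim30d (1.84 ± 0.30, 1.33e-05). Trim30b was at 714 to 1087 CPM in PMN-MDSC and 42.5 to 55.6 in M-MDSC. Its neighbor Trim30c went the other way, at 9.76 to 21.6 CPM in PMN-MDSC and 24.7 to 64.1 in M-MDSC (-1.53 ± 0.42, 0.00377). The other 3 of the lowest 4 were Trim62 (-2.84 ± 0.57, 2.06e-04), Trim32 (-2.06 ± 0.47, 6.05e-04) and Trim36 (-1.91 ± 0.47, 0.00130). With the block, Trim14 was also called lower (-0.56, 0.0180) and Trim5 higher in PMN-MDSC (0.68, 0.0467). Besides the PMN-MDSC and M-MDSC markers, 4 marker lists did not overlap and were higher in PMN-MDSC: macrophage markers at 381 to 1139 CPM against 225 to 301, erythroid markers at 69.5 to 191 against 23.9 to 48.3, endothelial markers at 29.2 to 72.6 against 19.6 to 28.6, and acinar markers at 1.58 to 5.58 against 0 to 0.341. Their part was not tested.

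In untreated tumor, 3 members differed between the gates, beside 3.76% of all genes higher and 2.04% lower in PMN-MDSC. Leaving out untreated PMN-MDSC replicate 2 left 1, and an adjusted p under 0.001 with at least 2-fold left 0. Trim12a (0.92 ± 0.24, adjusted p = 0.0217) and Trim39 (0.78 ± 0.20, 0.0184) were higher in PMN-MDSC, and Trim30c was lower (-1.85 ± 0.44, 0.0118). Trim30c held 5.78, 12.5, 15.2 and 17.99 CPM in tumor PMN-MDSC and 27.8, 46.8, 53.7 and 61.99 in tumor M-MDSC, without overlap. The sums of 5 marker lists did not overlap between these gates: PMN-MDSC and M-MDSC markers, given above, macrophage markers at 3119 to 3881 CPM in PMN-MDSC and 1569 to 2169.9 in M-MDSC, acinar markers at 22.7 to 194 and 5.85 to 22.5, and endothelial markers at 45.7 to 66.6 and 20.4 to 40.97. Their part was not tested.

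**Figure D4:**
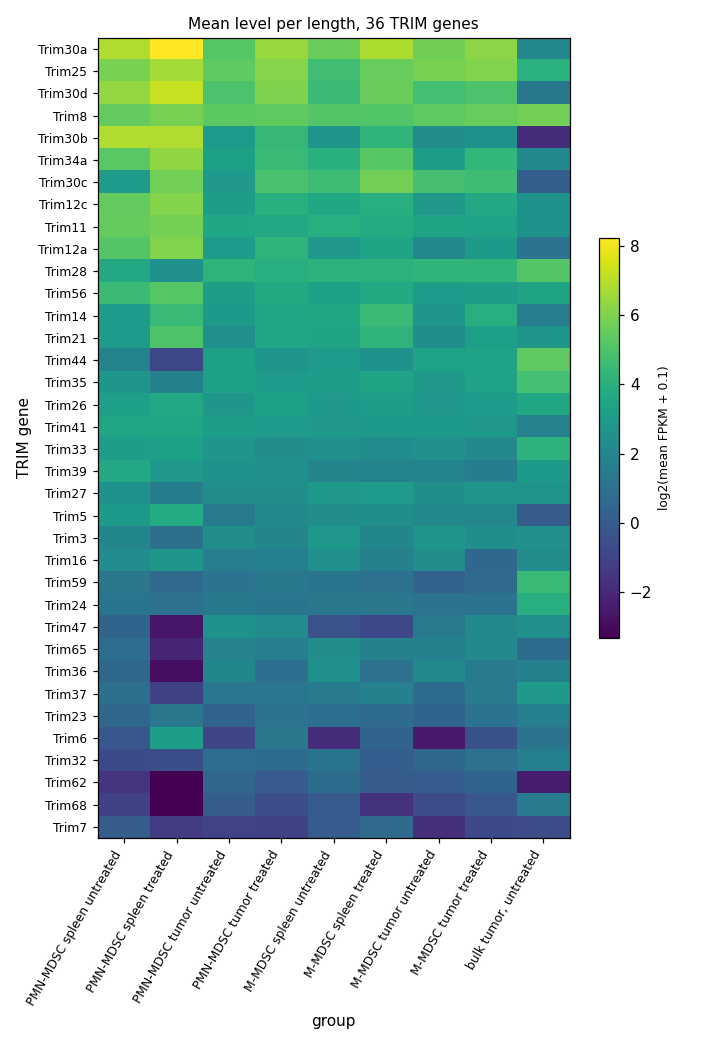
Mean level per length, as log2(mean FPKM + 0.1), of the 36 TRIM genes tested (rows, ordered by their mean over groups) in the 8 MDSC groups and in untreated bulk tumor (columns). Bulk tumor was scaled with untreated tumor MDSC in a separate fit, so its column is comparable with the others only in order. Trim30a has the highest mean in each treated MDSC group, and the Trim30 copies are dark in bulk tumor.

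Per length, the order of members differed between groups. In FPKM, untreated spleen PMN-MDSC were led by Trim30b at 114 ± 23.05 and Trim30a at 114 ± 12.8 (SD, n = 4), which do not differ beyond their spread, followed by Trim30d at 82.9 ± 18.4, Trim25 at 59.3 ± 16.4 and Trim11 at 45.3 ± 11.9. Treated spleen PMN-MDSC were led by Trim30a at 299 ± 135 (SD, n = 3), then Trim30d, Trim30b, Trim25 and Trim34a. The spread of the first 3 overlapped. Untreated tumor PMN-MDSC were led by Trim25 at 42.5 ± 6.24, Trim8 at 39.4 ± 6.79, Trim30a at 36.7 ± 5.93 and Trim30d at 31.7 ± 7.94 FPKM, which overlapped, and then Trim28. Treated tumor PMN-MDSC had the order Trim30a, Trim25, Trim30d, Trim8 and Trim30c.

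In untreated spleen M-MDSC Trim30a led at 49.8 ± 8.09 FPKM (SD, n = 4), before Trim8 at 34.9 ± 4.02, Trim25, Trim30c and Trim30d. Treated spleen M-MDSC had Trim30a at 109.96 ± 14.6 FPKM, then Trim30c, Trim30d, Trim25 and Trim34a. Tumor M-MDSC had Trim25 at 57.4 ± 3.29 and Trim30a at 53.2 ± 7.29 FPKM first when untreated, followed by Trim8, Trim30c and Trim30d, and Trim30a, Trim25, Trim8, Trim30d and Trim30c when treated. Trim8, a regulator of cytokine signalling, was called in none of the comparisons by the main edgeR fits, at -0.02 to 0.40 log2 under treatment.

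In bulk tumor from untreated mice, the 4 Trim30 copies tested were lower than in both MDSC gates and the 3 PHD-bromodomain genes tested, Trim24, Trim28 and Trim33, were higher. Against tumor PMN-MDSC 12 members were higher and 13 lower in bulk, beside 32.1% and 32.6% of all genes, and against tumor M-MDSC 14 and 13, beside 32.4% and 31.6%. These shares of members, 33.3% and 36.1%, then 38.9% and 36.1%, were near those of all genes. The 2 comparisons share the bulk libraries. Epithelial markers summed to 4678 to 6921 CPM in bulk, 124 to 744 in PMN-MDSC and 102 to 321 in M-MDSC, fibroblast markers to 883 to 1170.2, 27.9 to 47.4 and 1.28 to 31.6, and PMN-MDSC markers to 11.01 to 21.1, 1444 to 4519 and 233 to 584. The part of this cell makeup in the TRIM differences was not tested.

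Trim30b was at 0.836, 0.994, 1.31 and 2.19 CPM in bulk, 25.5, 56.6, 79.6 and 90.4 in tumor PMN-MDSC and 23.4, 38.4, 43.1 and 45.5 in tumor M-MDSC on the scale of that fit. Bulk lay far below both, with log2 fold changes of -5.64 ± 0.41 and -4.87 ± 0.42 (edgeR adjusted p = 3.60e-09 and 2.51e-08). Also among the lowest 4 against PMN-MDSC were Trim62 (-3.90), Trim30d (-3.80) and Trim30a (-3.24), and against M-MDSC Trim30c (-4.85), Trim30a (-3.77) and Trim62 (-3.61), with adjusted p between 2.43e-09 and 4.29e-05. In bulk, Trim30a held 7.38, 16.5, 18.2 and 23.9 CPM, against 133 to 189 and 182 to 251 in the PMN-MDSC and M-MDSC gates.

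Higher in bulk were Trim59, a membrane-anchored member, at 56.2, 60.3, 85.4 and 95.6 CPM, and Trim24, a bromodomain cofactor of nuclear receptors, at 118, 121, 128 and 137. Both lay above each of the 8 untreated tumor MDSC libraries, Trim59 at 3.15 to 10.7 and 0 to 7.97 and Trim24 at 18.96 to 26.7 and 11.9 to 25.6 CPM in PMN-MDSC and M-MDSC. Their log2 fold changes were 3.46 ± 0.39 and 2.54 ± 0.20 against PMN-MDSC, and 3.93 ± 0.41 and 2.92 ± 0.21 against M-MDSC, with edgeR adjusted p of 7.89e-07, 6.25e-09, 3.27e-07 and 1.96e-09. The remaining members of the highest 4 were Trim6 (2.26) and Trim44 (2.07) against PMN-MDSC and Trim6 (4.28) and Trim68 (2.72) against M-MDSC. Per length, bulk tumor was led by Trim8 at 54.8 ± 25.6 FPKM, Trim44 at 40.5 ± 9.54, Trim28 at 35.05 ± 8.84, Trim35 at 26.8 ± 6.00 and Trim59 at 22.2 ± 5.71 (SD, n = 4), where the SD ranges of neighbors in this order overlapped.

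Smaller classes of TRIM genes had few members at a testable level. Of the PHD-bromodomain genes, Trim24, Trim28 and Trim33 were tested, and Trim28 fell in spleen PMN-MDSC, as above, while edgeR called the others in none of the treatment comparisons. Of 15 genes listed as regulators of RNA and DNA sensing, 11 were tested, and 3 rose and 4 fell in spleen PMN-MDSC, namely Trim14, Trim21 and Trim25 against Trim27, Trim44, Trim65 and Trim68. Of all genes, 6.29% rose and 14.4% fell in spleen PMN-MDSC. In spleen M-MDSC 3 of these 11 members rose and 0 fell, beside 6.9% and 4.02% of all genes. In tumor PMN-MDSC and tumor M-MDSC 1 rose and 0 fell, where 1.75% and 4.26% of all genes rose. Of 11 tested members listed as other, widely expressed genes, 0 rose and 6 fell in spleen PMN-MDSC, beside 6.29% and 14.4% of all genes. In tumor M-MDSC 1 of them (Trim16) fell, beside 2.36% of all genes. In the lists of NHL-repeat (2 tested), COS-box (1), MHC-linked (2) and membrane-anchored (1) genes, the members called were Trim3, Trim36 and Trim39, given above.

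Genes outside the Trim symbols were read for context. Of 6 family members under other names, 4 were tested, and Pml, the organizer of nuclear bodies, rose in all 4 populations, by 1.10, 1.21, 1.66 and 1.18 on the log2 scale (adjusted p = 0.00139, 0.00138, 5.19e-06 and 0.00208). Rnf135, a RIG-I ligase, rose in spleen and tumor M-MDSC (1.29 and 1.30), and Mefv, the inflammasome sensor pyrin, fell in tumor M-MDSC (-1.44). Of 19 tested RNA-sensing and interferon pathway genes, 12, 9, 11 and 6 rose in spleen PMN-MDSC, tumor PMN-MDSC, spleen M-MDSC and tumor M-MDSC. Of all genes, 6.29%, 1.75%, 6.9% and 4.26% rose in the same order. Among the 19 genes, 1 fell: Mavs, the mitochondrial adaptor of RIG-I and MDA5, in spleen PMN-MDSC (-2.96 ± 0.62, 0.00104). Irf7, the interferon regulatory factor that amplifies the response, rose by 2.72, 3.90, 3.003 and 3.02. Ifih1, which encodes MDA5, rose by 2.25, 1.03, 1.91 and 0.98. Of 14 ubiquitin partners, 3, 2, 4 and 3 rose, beside the same shares of all genes, with Ube2l6, the conjugating enzyme of ISG15, at 3.50, 2.30, 2.21 and 1.34.

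The 32 members that were not tested had a mean of at most 4.80 counts. Their highest group means among MDSC were 9.43 CPM for Trim9, 4.96 for Trim2, 4.51 for Trim72, 3.20 for Trim69, 2.84 for Trim45, 2.82 for Trim46, 2.80 for Trim13 and 2.04 for Trim10. Trim2 and Trim46, at 82.2, 89.1, 104 and 142 and 15.1, 20.2, 20.6 and 26.6 CPM in bulk tumor, had higher levels there than in any MDSC group. Trim29, Trim34b, Trim17, Trim71 and Trim58 reached 1.91, 1.46, 1.33, 1.19 and 1.10 CPM, of which Trim10 and Trim58 are erythroid genes. Between 0.0685 and 0.704 CPM were Trim31, Trim43a, Trim38, Trim75, Trim66, Trim67, Trim50, Trim15, Trim52, Trim63, Trim80, Trim43c, Trim61, Trim40, Trim55, Trim43b, Trim42, Trim54 and Trim60, among them the muscle genes Trim54, Trim55 and Trim63. No treatment effect was tested at these counts.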

How the data were processed

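RNA of sorted MDSC and bulk tumor was sequenced from ribosomal RNA-depleted, stranded libraries amplified by PCR. The authors aligned reads to mm10 with ContextMap and BWA and deposited raw read counts per Gencode gene from strand-specific featureCounts (Subread 1.4.6-p3). Columns were assigned to groups by the labels, and columns named G were taken as PMN-MDSC. Replicate numbers follow the order of the columns within a group and pair nothing. Pairing was read afterwards from the numbers in the column names, whose sets of 4 follow the numbered titles, and the 42 pairs of libraries within such sets deviated together weakly (median r = 0.0839). Identifiers were named with GENCODE M21 (GRCm38). Counts of 30 MDSC libraries, at 793070 to 4357105 each, were fitted in 1 model with edgeR 4.0.16 (R 4.3.3, TMM scaling, robust quasi-likelihood F-test, two-sided) after a filter of a mean of 5 counts. The 12 untreated tumor libraries were fitted separately for bulk tumor. Benjamini-Hochberg adjustment ran over 12487 genes. The SE is the log2 fold change over the square root of F. Scripts were tested on simulated data. Among 48 pairs of libraries within groups, 0 were identical. Members called under treatment are named, the 10 of smallest adjusted p with every library, and in other comparisons the 4 highest and 4 lowest, plus the 5 highest per length in each group. The members and lists were chosen with earlier results of these data known. Alternatives were DESeq2 1.42.0, its size factors, other filters, a stricter threshold, only the libraries compared, each library left out and, where a set holds both groups, the set as a block.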

Additional observations from a re-analysis of the deposited data

Results flagged for a closer look

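Of 60 groups of 4 libraries checked for the 10 members given with every library, 6 held 1 library far from the other 3 by Dixon's test, at which chance gives about 1 in 20. In untreated tumor PMN-MDSC, Trim44 had 1 low library at 42.5 CPM beside a nearest value of 56.1, Trim21 had 1 low library at 11.6 beside 22.3, and Trim28 had 1 high library at 91.9 beside 72.0. In treated tumor PMN-MDSC, Trim6 had 1 high library at 22.6 CPM beside 8.08. In untreated tumor M-MDSC, Trim44 had 1 high library at 63.9 CPM beside 55.4, and Trim37 had 1 high library at 18.3 beside 9.33.

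The effect of treatment differed between populations for 7 members by a test of the difference of log2 fold changes. Of all genes, 5.07% differed between tumor and spleen PMN-MDSC and 10.1% between the spleen cell types. At the strict threshold 0 members differed in either comparison. On the PMN-MDSC libraries alone 1 member differed between tumor and spleen, and the block lost Trim28 there. In tumor against spleen PMN-MDSC the difference was 0.94 for Trim28, 2.49 for Trim37, 2.54 for Trim44 and 3.44 for Trim65. In spleen PMN-MDSC against spleen M-MDSC it was -1.14 for Trim28, -2.68 for Trim37, -2.51 for Trim44, -2.94 for Trim65, -1.27 for Trim27, -1.45 for Trim35 and 1.22 for Trim21. The spleen PMN-MDSC libraries enter both comparisons.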

How the results depend on the processing

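No call of a named member in the treatment comparisons reversed direction under the alternatives that were run. For the other comparisons, direction was not checked gene by gene. The strict threshold of the study's methods, an adjusted p under 0.001 and at least 2-fold, called 8, 1, 1 and 0 members under treatment in spleen PMN-MDSC, tumor PMN-MDSC, spleen M-MDSC and tumor M-MDSC, beside 4.6%, 0.456%, 2.23% and 0.705% of all genes. It called 1 member between tumor and spleen M-MDSC (5.24% of all genes), 13 between the cell types in spleen (21.4%), 0 in tumor (0.472%), 16 and 16 in bulk tumor against PMN-MDSC and M-MDSC (37.9% and 38%), and 0 for the differences of effect between tumor and spleen PMN-MDSC (0.248%) and between the spleen cell types (0.937%). With only the libraries compared, 10 members were called in spleen PMN-MDSC, 1 in tumor M-MDSC and 1 for the tumor against spleen PMN-MDSC difference. With no filter on low counts, the differences of effect called 11 members between the spleen cell types (4.33% of all genes), 2 between those of tumor (0.911%) and 1 between tumor and spleen M-MDSC (1.39%). The causes were not tested. Of 42 calls of named genes, 41 held with DESeq2, 41 with its size factors in edgeR, 38 with no filter and 25 with only the libraries compared, and at a mean of at least 25 counts 36 of those still tested held. With 1 library left out, 243 of 311 such calls held. Over those fits, members called under treatment ranged from 13 to 23 in spleen PMN-MDSC, 3 to 8 in tumor PMN-MDSC, 6 to 10 in spleen M-MDSC and 3 to 4 in tumor M-MDSC. They ranged from 16 to 18 and 5 to 8 for tumor against spleen in PMN-MDSC and M-MDSC, 19 to 23 and 1 to 3 between cell types in spleen and tumor (1 without untreated tumor PMN-MDSC replicate 2), and 24 to 27 and 25 to 28 in bulk against PMN-MDSC and M-MDSC. For the differences of effect they ranged from 1 to 6 in PMN-MDSC (1 without untreated replicate 1 or treated replicate 3 of spleen), 0 to 0 in M-MDSC, 4 to 8 in spleen (4 without treated PMN-MDSC replicate 3) and 0 to 1 in tumor (1 without treated M-MDSC replicate 1). Counts of 0 to 5 per library limit the size of the changes of Trim36, Trim44, Trim47, Trim62, Trim65 and Trim68 in treated spleen PMN-MDSC. Few counts also limit that of Trim37 there. A replicate block, chosen after seeing the data, took the sets of 4 in the column numbers as mice. Library deviations from group means correlated at a median of 0.0839 within sets (18 of 42 pairs over 0.1) and -0.0191 between sets of 1 treatment. The blocked fit called 17 and 8 members for tumor against spleen, 23 and 3 between cell types and 25 and 27 in bulk tumor, in the order above, beside 52.9%, 19.9%, 53.3%, 7.35%, 62.6% and 62.5% of all genes, and 3, 0, 7 and 0 for the differences of effect, beside 4.8%, 1.31%, 9.98% and 0%. It lost Trim7 and gained Trim65 for tumor against spleen PMN-MDSC, lost Trim28 for their difference of effect, and gained Trim12c for tumor against spleen M-MDSC and Trim14 and Trim5 between the spleen cell types. The treatment comparisons could not be blocked because each set holds 1 treatment.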
